A study of Rattus norvegicus with 9 samples.

Results

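The genes described are 72 chromatin modifiers and remodellers of the rat thalamus, out of 14217 genes measured on the array. They were taken by symbol: the lysine methyltransferases (Kmt), lysine demethylases (Kdm), numbered SET-domain (Setd), AT-rich interaction domain (Arid), chromodomain helicase (Chd), numbered histone deacetylase (Hdac) and SWI/SNF-related (Smarc) genes, with Setdb1 and Bicral added by name. Each gene is represented by the probe set with the highest mean over all arrays, among 145 probe sets that carry a single symbol of these genes. The families, and Setdb1 and Bicral in particular, were chosen by their log2 differences between the diets on these same arrays, so the counts that follow describe these genes and are no independent evidence about them. For the same reason no p-value is given for Bicral or Setdb1.

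Total thalamic RNA of male Wistar rats was run on 1-colour arrays, 4 for rats fed solid chow and 5 for rats fed the diet as powder. The labels speak of 10 rats, against 9 arrays here. Feeding began at 3 weeks of age, and 5 weeks is the age given for every sample. Both groups first had 2 days on powder and then 8 days on the assigned diet, so that the chow rats had been powder-fed too. The labels do not say which animal each array came from, and the p-values measure only the spread between these samples. The tissue is bulk thalamus, in which fewer cells of a type and less RNA per cell cannot be told apart.

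DNA in the nucleus is wound around histone proteins. Methyltransferases, demethylases and deacetylases add or remove small marks on the histone tails, while remodelling complexes (SWI/SNF, ISWI and CHD) use ATP to slide or evict the histone cores. In neurons these proteins take part in switching gene programmes during maturation and in response to activity, and mutations in many of them cause neurodevelopmental disorders in humans. The roles given for single members are background, known mainly from human and mouse.

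Promoter sequence is shown for 3 members: Bicral, which had the largest difference, and the related pair Arid4a and Arid4b, which moved in opposite directions. Each runs 5′ to 3′ from 250 bases before to 50 bases after the RefSeq start in assembly GRCr8, with CCAAT boxes on either strand (CCAAT or ATTGG) in capitals. Bicral lies on the plus strand at chr9:21651578-21651877, Arid4b on the minus strand at chr17:55958333-55958632 and Arid4a on the plus strand at chr6:95258179-95258478.
Bicral: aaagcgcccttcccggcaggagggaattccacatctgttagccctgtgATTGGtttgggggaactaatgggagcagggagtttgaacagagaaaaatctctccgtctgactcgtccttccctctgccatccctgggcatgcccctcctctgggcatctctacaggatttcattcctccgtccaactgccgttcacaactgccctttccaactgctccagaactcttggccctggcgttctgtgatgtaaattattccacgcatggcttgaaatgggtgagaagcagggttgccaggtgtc
Arid4b: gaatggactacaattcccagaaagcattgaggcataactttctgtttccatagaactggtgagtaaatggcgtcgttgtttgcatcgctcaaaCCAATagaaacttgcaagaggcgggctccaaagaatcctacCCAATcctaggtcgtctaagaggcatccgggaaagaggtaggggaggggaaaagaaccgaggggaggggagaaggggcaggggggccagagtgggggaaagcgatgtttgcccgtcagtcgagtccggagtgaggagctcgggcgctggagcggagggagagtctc
Arid4a: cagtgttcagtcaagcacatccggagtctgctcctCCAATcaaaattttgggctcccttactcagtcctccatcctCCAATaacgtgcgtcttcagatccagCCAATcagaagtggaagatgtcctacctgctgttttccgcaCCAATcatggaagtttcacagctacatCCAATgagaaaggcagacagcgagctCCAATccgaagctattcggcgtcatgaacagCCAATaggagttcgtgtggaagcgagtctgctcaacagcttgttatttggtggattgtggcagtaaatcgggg

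The Arid4a window held 7 CCAAT boxes, all on the gene's own strand, the Arid4b window held 2 and the Bicral window held 1. Among 33465 rat promoter windows of the same length, 37.5% held at least 1 such box, 11.2% at least 2 and 0.0149%, 5 windows in all, at least 7. None of the 3 windows held a GC box (GGGCGG or CCGCCC), which 33.1% of all windows held, or a TATA box (TATAAA or TTTATA), which 14.2% held. Over the 63 members found by symbol in the promoter table, 32 of 86 windows held a CCAAT box, 55 a GC box and 5 a TATA box. Member windows had a median of 23 CpG dinucleotides, against 7 in all windows. These are matches of letters, and no binding was measured.

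Most of these genes barely varied in the deposited table, and this decides what can be said of them. For 55 of the 72 members the 9 values lay within less than 0.01 log2 units of each other, with a median span of 0.000464. The other 17 members (23.6%) spanned 0.01 or more, against 2414 of all 14217 genes (16.98%). The 17 are called varying members here, and the rest flat members. Nearest to the limit were Kmt5a inside it, with a span of 0.0104, and Kdm3b outside it, with 0.00251.

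**Figure D1:**
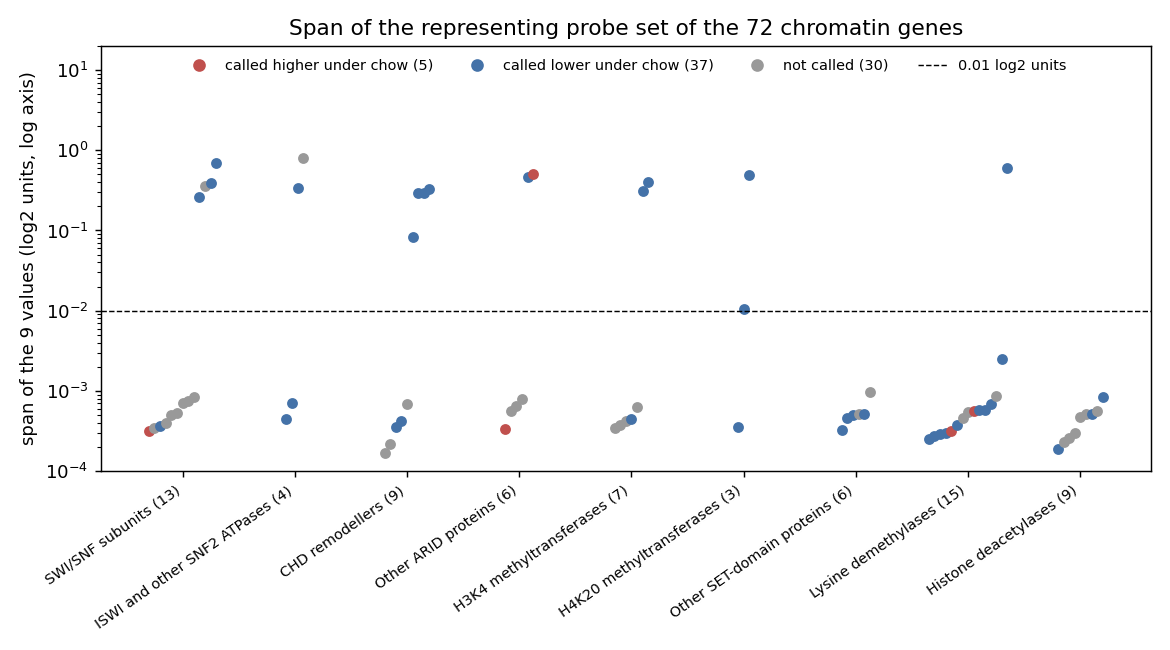
Span of the 9 array values (log2 units, log axis) on the representing probe set of each of the 72 chromatin genes, by family, with the number of genes in parentheses and colour for the call. The 17 points on or above the dashed line at 0.01 are the varying members, and no numbered deacetylase or other SET-domain gene is among them.

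The chow array numbered 1 stood apart from the rest. Its root mean square deviation from its group's mean, over all probe sets spanning at least 0.01, was 0.200 log2 units, against 0.0952 to 0.138 on the other chow arrays and 0.0914 to 0.119 on the powder arrays. The 3′ probe set of the beta-actin control, a sign of RNA or labelling quality, exceeded the 5′ one by 1.44 to 1.58 log2 units on chow arrays and by 1.55 to 1.70 on powder arrays. Thalamic markers were present, with Tcf7l2, a transcription factor of thalamic neurons, at a mean of 11.8 on chow and 12.1 on powder arrays. All its chow arrays lay below its powder arrays, but it was not called (adjusted p = 0.0808). Rora, of the same list, differed by 0.22 (adjusted p = 0.192). Gad2, which makes the transmitter of reticular nucleus neurons, differed by 0.60, 1.51-fold, with all chow arrays above all powder arrays (adjusted p = 0.0536). It was at 9.10 on chow 1, against 8.24 to 8.29 on the other chow arrays. The rest of the reticular list overlapped between the groups and was not called. There Slc32a1 differed by 0.25, Gad1 by 0.075 and Pvalb by -0.053. Of 9 marker lists of cell types and neighbouring regions, none had a gene called higher. Endothelium had 3 of 5 genes and oligodendrocytes 1 of 5 called lower, beside 18.8% of all genes, and 0 genes were called in the other 7 lists. Among the endothelial 3, Tek differed by only -0.000454. The mean level over the thalamic neuron list was 10.1 to 10.6 on chow and 10.5 to 10.6 on powder arrays, and over the striatal list 7.504 to 8.26 on chow and 7.42 to 7.56 on powder arrays. Chow 1 gave both the lowest thalamic and the highest striatal level. There the striatal gene Ppp1r1b was at 9.18, against 7.93 to 7.99 on the other chow arrays, while Tcf7l2 was at 11.5, against 11.9 to 12.0. The part of cell composition in the results below was not tested.

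Among the varying members, 14 of 17 were lower and 1 was higher in chow-fed than in powder-fed thalamus. They were called at an adjusted p under 0.05 in a fit over all genes, which called 40.2% of the 2414 varying genes lower and 9.03% higher. The groups did not overlap for the same 14 and 1 members, where 37.9% of varying genes lay wholly lower and 8.29% wholly higher under chow. The median difference, chow minus powder, was -0.19 log2 units over the 17 members and -0.12 over the 2414 genes. Centred on each gene's mean, the median over the 17 members was -0.133 to -0.0566 on the chow arrays and 0.0698 to 0.119 on the powder arrays. Without the chow array that stood apart, 13 were lower and 1 was higher. With the beta-actin gap as a covariate, an alternative chosen after the data had been seen, 7 were lower and 0 higher, while the median difference was -0.22. The share of varying genes called with the covariate is not given here, so these counts cannot be set beside 40.2% and 9.03%. Those 7 were Bicral, Arid4b, Kmt2c, Smarca2, Chd2, Chd6 and Chd9. Bicral, counted among both the 14 and the 7, was chosen by its difference on these arrays, so its calls are no evidence. The 8 no longer called were Smarca5, Smarcc2, Chd3, Kmt2d, Kmt5a, Kmt5c, Kdm7a and Arid4a, whose adjusted p with the covariate is given beside each below. Only powder 4, at 1.55, had a gap within the range of the chow arrays. Gap and diet can therefore hardly be told apart in the fit with the covariate, and the part of RNA quality was not tested.

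**Figure D2:**
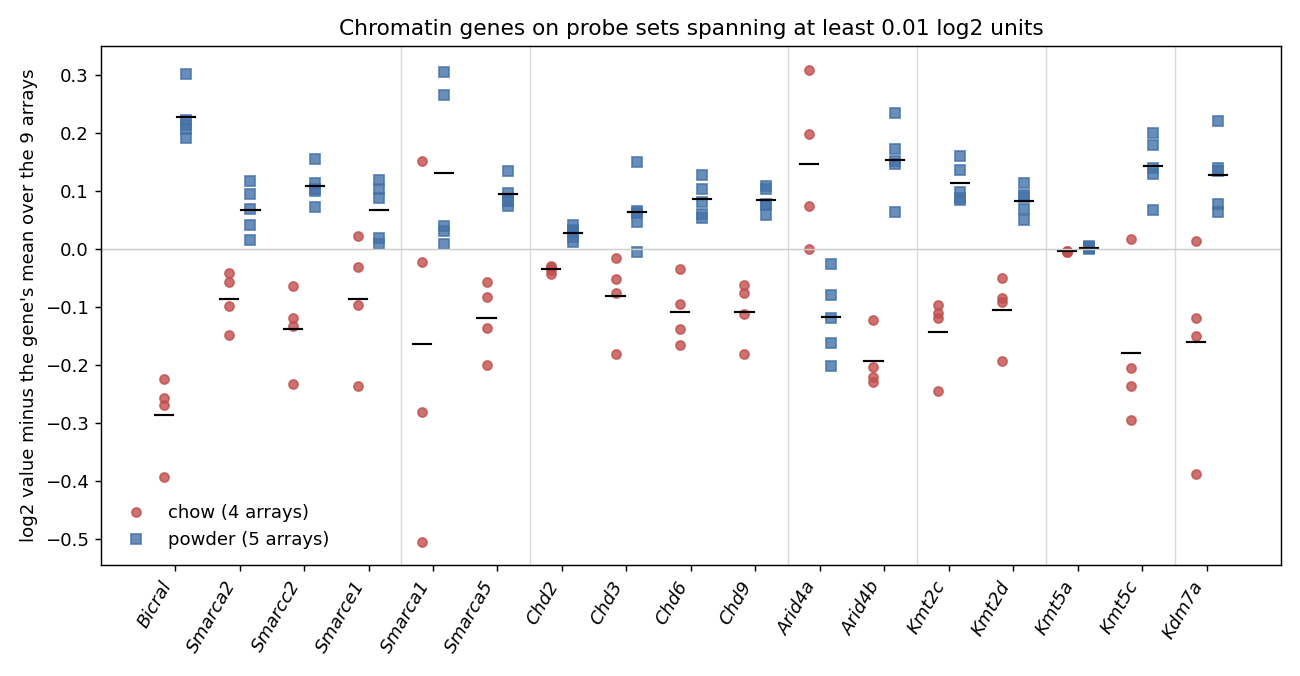
Log2 value of each of the 17 varying members minus the gene's mean over the 9 arrays, for the 4 chow arrays (circles, left of each pair) and the 5 powder arrays (squares, right), with group means as bars. Chow lies below powder without overlap in 14 genes and above it in Arid4a, while the groups overlap in Smarce1 and Smarca1.

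Of 13 SWI/SNF subunits, 4 varied, and 3 of these were lower under chow on the representing probe set, beside 40.2% of all varying genes. Bicral, 1 of the 3, was chosen by its difference on these arrays, so this count is no evidence about the family. For Smarca2 and Smarcc2, among the 3, another varying probe set was higher, as given further on. Bicral, a subunit of the non-canonical form of the complex, was at 7.57, 7.70, 7.71 and 7.74 on the chow arrays and at 8.17, 8.27, 8.16, 8.18 and 8.19 on the powder arrays. Every chow value lay well below every powder value. Chow arrays averaged 7.68 ± 0.0740 and powder arrays 8.20 ± 0.0432 (SD, n = 4 and 5), a difference of -0.51 ± 0.038 (SE) or 0.7004-fold.

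Smarcc2, the BAF170 scaffold that neurons use in this complex, was at 9.09, 9.19, 9.21 and 9.26 under chow, against 9.43, 9.44, 9.40, 9.43 and 9.48 under powder. The difference was -0.25 ± 0.034 log2 units, 0.843-fold, with adjusted p = 0.00381, and 0.0620 with the covariate. Smarca2, the BRM ATPase that drives the complex, was at 9.81, 9.70, 9.75 and 9.80 under chow and at 9.87, 9.89, 9.95, 9.97 and 9.92 under powder. Its groups lay close to each other without touching, and the difference was -0.15 ± 0.029 (adjusted p = 0.00903). Smarce1, the DNA-bending BAF57 subunit, had values of 9.55, 9.67, 9.62 and 9.41 under chow and of 9.74, 9.67, 9.77, 9.75 and 9.66 under powder. These overlapped, and Smarce1 was not called (-0.15 ± 0.054, adjusted p = 0.0628), except without chow 2 (adjusted p = 0.0428) and with array medians subtracted (adjusted p = 0.0267).

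The other 9 SWI/SNF subunits were flat, with differences from -0.000214 to 0.000264 log2 units. They include the core subunit Smarcb1, which was not called. The ATPase Smarca4 (BRG1) was called lower and the DNA-binding subunit Arid1a higher, on differences of this size, which have a test result but hardly any magnitude. For Smarca4 and Arid1b, both among the flat subunits, another probe set varied and was higher, as given further on.

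The ISWI ATPases, which space nucleosomes evenly, had 2 varying genes. Smarca5 (SNF2H) was at 8.57, 8.69, 8.63 and 8.71 under chow and at 8.87, 8.85, 8.91, 8.85 and 8.85 under powder, with no overlap. The difference was -0.21 ± 0.030 (adjusted p = 0.00395, and 0.0677 with the covariate). Smarca1 (SNF2L), the paralogue enriched in neurons, was the most scattered of the varying members, at 7.95, 7.29, 7.52 and 7.77 under chow and at 7.80, 7.83, 8.10, 8.06 and 7.84 under powder. Its difference of -0.29 ± 0.142 was not called (adjusted p = 0.143), and it was -0.18 without chow 2 and -0.45 with the covariate. Smarcad1 and Smarcal1, related ATPases of DNA repair and replication, were flat and called lower by 0.000316 and 0.000362.

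All 4 varying CHD remodellers, of 9 measured, were lower under chow, as were 40.2% of all varying genes. Chd9 was at 8.55, 8.43, 8.50 and 8.54 under chow and at 8.69, 8.69, 8.67, 8.72 and 8.71 under powder, a difference of -0.19 ± 0.025 (adjusted p = 0.00328). Chd6, of the same subfamily, was at 8.16, 8.19, 8.24 and 8.30 under chow and at 8.43, 8.39, 8.41, 8.46 and 8.38 under powder (-0.19 ± 0.029, adjusted p = 0.00462). Chow was 0.875-fold of powder for Chd9 and 0.874-fold for Chd6, and neither gene's groups overlapped. Chd3, an ATPase of the NuRD co-repressor, was at 8.95, 8.98, 8.85 and 9.01 under chow and at 9.09, 9.09, 9.18, 9.02 and 9.08 under powder. Its highest chow and lowest powder arrays nearly met (-0.14 ± 0.041, adjusted p = 0.0333), and the call was lost on leaving out any 1 of 7 arrays, all but chow 4 and powder 4 (adjusted p from 0.0526 to 0.0672). With the covariate it was at -0.066 (adjusted p = 0.464). Chd2, mutated in human epileptic encephalopathy, had a small difference of -0.062 ± 0.0060 with no overlap (adjusted p = 0.00194), which was -0.038 after quantile normalization. The 5 flat CHD genes, of which Chd4, the main NuRD ATPase, and Chd8 were called lower, had differences from -0.000239 to 8.6e-06.

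The related genes Arid4a and Arid4b, whose proteins bind the retinoblastoma protein and join the Sin3 deacetylase complex, went opposite ways. Arid4a was at 8.43, 8.32, 8.12 and 8.19 under chow and at 7.92, 7.9998, 7.96, 8.09 and 8.04 under powder. Chow arrays averaged 8.27 ± 0.137 and powder arrays 8.002 ± 0.0692 (SD, n = 4 and 5), a difference of 0.26 ± 0.068 or 1.2005-fold (adjusted p = 0.0241, and 0.141 with the covariate). It was the only varying member called higher, and it was not called without chow 2, powder 1 or powder 3 (adjusted p from 0.0531 to 0.0610). Arid4b was at 8.80, 8.79, 8.82 and 8.90 under chow and at 9.17, 9.17, 9.26, 9.09 and 9.20 under powder. Averages of 8.83 ± 0.0489 for chow and 9.18 ± 0.0615 for powder arrays gave a difference of -0.35 ± 0.037, 0.786-fold (adjusted p = 0.00217), and the call held with each array left out in turn. The other 4 DNA-binding proteins of this domain class were flat, and 1 of them, Arid3a, was called higher by 0.000184.

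Of 7 members of the families that methylate histone H3 at lysine 4, or are related to those enzymes, Kmt2c and Kmt2d varied. Methylated lysine 4 is a mark of active promoters and enhancers. Both genes were lower under chow, beside 40.2% of all varying genes. Their proteins act mainly at enhancers. Kmt2c (MLL3) was at 9.16, 9.03, 9.15 and 9.18 under chow and at 9.36, 9.41, 9.43, 9.36 and 9.37 under powder. Kmt2d (MLL4), the gene of Kabuki syndrome in humans, was at 8.93, 9.07, 9.04 and 9.03 under chow and at 9.19, 9.24, 9.21, 9.22 and 9.17 under powder. No chow array reached any powder array in either gene, and the differences were -0.26 ± 0.034 for Kmt2c (adjusted p = 0.00335) and -0.19 ± 0.029 for Kmt2d (adjusted p = 0.00519, and 0.0655 with the covariate). The other 5 of the 7 genes were flat on their representing probe sets, and of them only Kmt2b was called, lower by 0.000246. For Kmt2a and Kmt2e another probe set varied and was higher, as given further on.

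Kmt5c, which adds the trimethyl mark on histone H4 found in silent chromatin, was at 7.74, 7.83, 7.80 and 8.05 under chow and at 8.10, 8.18, 8.22, 8.24 and 8.17 under powder. The difference was -0.32 ± 0.063 or 0.799-fold (adjusted p = 0.0106, and 0.0966 with the covariate), with chow 4 close to the lowest powder array. Kmt5a, which adds the first methyl group at the same residue, differed by only -0.0063 ± 0.0011 (8.490 ± 0.0016 under chow and 8.497 ± 0.0018 under powder), and Kmt5b was flat. Kmt5a had an adjusted p of 0.00732, and of 0.108 with the covariate. That small Kmt5a difference turned to 0.013 after quantile normalization and to 0.000293 with array medians subtracted. The remaining 6 SET-domain members were flat. Setdb1, a silencing methyltransferase of histone H3, was between 8.7834 and 8.7836 under chow and between 8.7836 and 8.7837 under powder, and its difference was -0.000181 ± 5.2e-05. The sign of this difference turned after either rescaling.

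Of 15 lysine demethylases 1 varied. Kdm7a, which removes repressive methyl marks from histone H3, was at 8.40, 8.67, 8.80 and 8.64 under chow and at 9.01, 8.87, 8.92, 8.85 and 8.93 under powder. The chow values were widely spread and still below all powder values, and the difference was -0.29 ± 0.078 (adjusted p = 0.0283, and 0.161 with the covariate). Kdm7a was not called without chow 2, chow 4, powder 1, powder 3 or powder 5 (adjusted p from 0.0532 to 0.0618). The 14 flat demethylases had 9 called lower and 2, Kdm5b and Kdm6b, called higher, with the largest difference in size at -0.00175 in Kdm3b. Of all 11803 flat genes, 14.4% were called lower and 15.2% higher.

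The 9 histone deacetylase genes among the members, whose proteins remove acetyl groups from histones and other proteins, were flat on their representing probe sets. Their differences ran from -0.000444 to 0.000170, and 3 (Hdac1, Hdac6 and Hdac8) were called lower. For Hdac1 another probe set varied and was higher, as given further on. Over all 72 members, flat ones included, 37 were called lower and 5 higher. The fit called 32.9% of all genes, with 18.8% lower and 14.2% higher. Leaving out 1 array gave as few as 23 lower calls, without powder 1, and 24 without powder 3. Higher calls were 2 without powder 1 and 3 without chow 2 or chow 4. That count depends on the scaling. After quantile normalization 13 members were lower and 54 higher, and with array medians subtracted 14 were lower and 56 higher. The flat Setdb1, with a span of 0.000329, then had differences of 0.023 and 0.00639. Array medians were 7.391 to 7.396 on chow and 7.398 to 7.402 on powder arrays, and subtracting them shifts every gene of an array alike. Shares of all genes called under these scalings are not given here, so the rescaled counts show nothing particular to the members. Among the varying members these scalings gave 13 lower and 2 higher, and 14 lower and 1 higher.

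The members' other probe sets did not repeat this direction. Of the 73 other probe sets, 13 varied, and 9 of these were higher and 3 lower under chow. Over all genes the same kind of probe set was called higher in 41.8% and lower in 18.1% of 1019 cases, in a fit over all rat probe sets. The members share this with other genes: among varying probe sets, a gene's probe set of highest mean was more often called lower, and its other probe sets more often higher. Where the probes lie on the transcripts was not analysed here.

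In 4 genes the representing probe set and another one both varied. Chd6 went the same way on both (second difference -0.36 ± 0.052, adjusted p = 0.00443), as did Arid4a (0.30 ± 0.039, adjusted p = 0.00341). Smarca2 disagreed with itself, since its second varying probe set was higher under chow (0.24 ± 0.067, adjusted p = 0.0315) while the first was lower. That second call was lost without chow 2, chow 3, powder 1, powder 2, powder 3 or powder 5 (adjusted p from 0.0582 to 0.0757). Smarcc2 had a second probe set at -0.21 ± 0.032 and another at 0.30 ± 0.039 (adjusted p = 0.00551 and 0.00329). No single direction can therefore be given for Smarca2 or Smarcc2.

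In 8 further genes only a probe set other than the representing one varied. Kmt2e, an MLL-family protein linked to autism in humans, had the largest of these, at 0.44 ± 0.052, where chow arrays averaged 7.90 ± 0.0512 and powder arrays 7.46 ± 0.0948 (SD, n = 4 and 5, adjusted p = 0.00269). Kmt2a (MLL1) was at 0.32 ± 0.048, Setd5 at 0.28 ± 0.057 and Smarca4 at 0.23 ± 0.042. Arid1b, the gene of Coffin-Siris syndrome in humans, was at 0.21 ± 0.038 and Hdac1 at 0.20 ± 0.033. Each of these 6 was called higher, with adjusted p from 0.00269 to 0.0112. The flat representing probe sets of Setd5, Smarca4 and Hdac1 had been called lower, and those of Kmt2e, Kmt2a and Arid1b were not called. Chd7, the gene of CHARGE syndrome in humans, was called lower (-0.23 ± 0.056, adjusted p = 0.0207), though not without chow 1 (adjusted p = 0.0515), and Kdm5a was not called (0.061 ± 0.037, adjusted p = 0.219). With the beta-actin gap as a covariate, 1 of the 13 probe sets was called higher, that of Kmt2e, and 1 lower, that of Chd6. No share of all other probe sets is given for that fit.

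**Figure D3:**
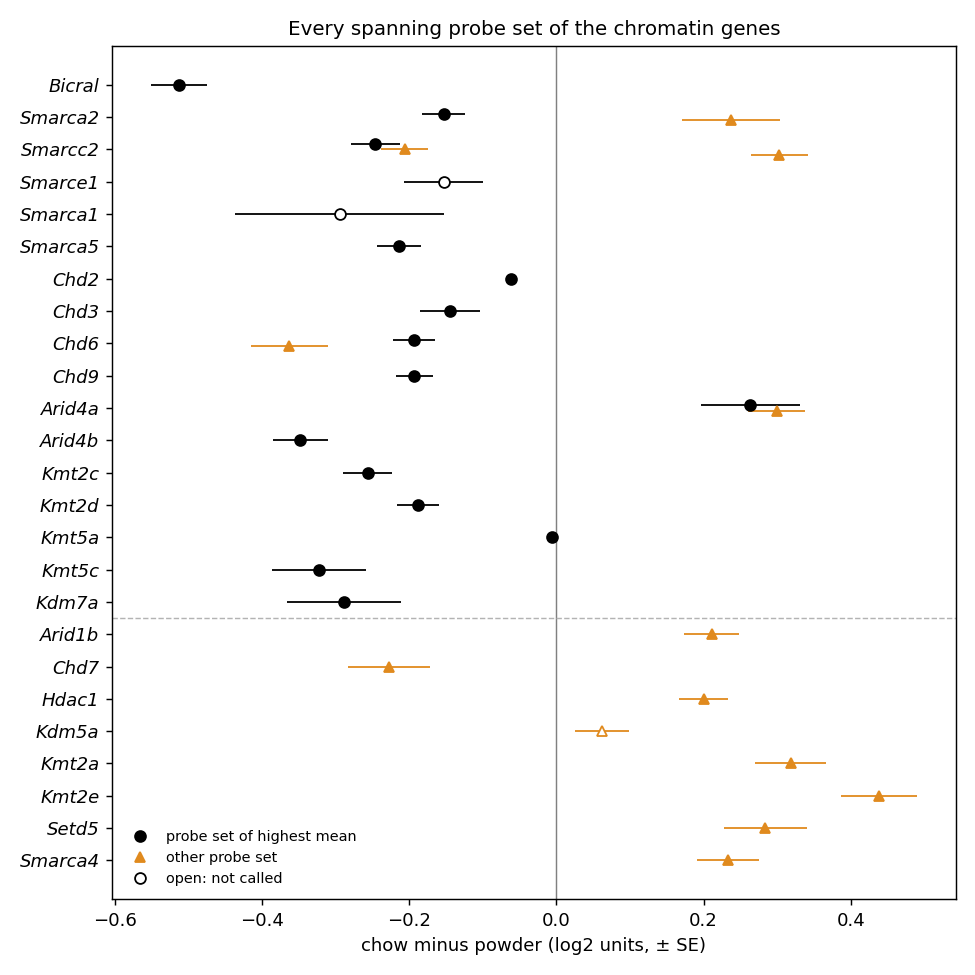
Chow minus powder difference (log2 units, ± SE) of every varying probe set of the chromatin genes, with black circles for the probe set of highest mean and orange triangles for others, open where not called. Genes under the dashed line vary only on another probe set, and 9 of the 13 triangles are called to the right of 0 where 14 of the 17 circles are called to its left.

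Taking for each gene its highest varying probe set, 25 members had one, of which 15 (60%) were lower and 7 (28%) higher. Over all genes that rule gave 36.8% lower and 16.1% higher of 2906. When each gene took the median of its probe sets instead, 12 of the members that then varied were lower and 6 higher. The share of all genes called under the median rule is not given here, so these counts have no rate beside them. The median took Bicral, of whose 3 probe sets 1 varied, to -0.00018. Likewise Chd2, Chd9, Kmt2c, Kmt2d and Smarca5, each with 1 varying probe set of 2 or 3, were between -0.13 and -0.031, and Chd6 was at -0.36.

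Other chromatin genes were read from 11 lists of complex partners and related enzymes. Of 140 measured genes outside the 72, 54 were called lower and 9 higher, and of the 23 that varied, 18 were lower and 0 higher. Over all genes 18.8% were lower and 14.2% higher, and over varying genes 40.2% were lower and 9.03% higher. On representing probe sets, lower calls thus outnumbered higher ones over all genes as well. That was not so among flat genes, with 14.4% lower and 15.2% higher. With the beta-actin gap as a covariate, 7 of these 23 were lower and 0 higher, and no share of all genes is given for that fit.

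Among the other histone methyltransferases all 6 varying genes were lower, beside 40.2% of all varying genes. They include Nsd3 (-0.35 ± 0.015, adjusted p = 0.000289), Ash1l (-0.28 ± 0.033), Nsd2 (-0.26 ± 0.028) and Dot1l (-0.24 ± 0.035). Nsd2, Nsd3 and Ash1l methylate histone H3 in active genes, and Dot1l marks the core of the same histone. The Polycomb genes Pcgf6 (-0.35 ± 0.037) and Eed (-0.30 ± 0.033), which belong to gene-silencing complexes, were lower too. So were Baz1b, a partner of Smarca5 in the WICH complex (-0.36 ± 0.024, adjusted p = 0.00143), and Pbrm1, the Polybromo subunit of a SWI/SNF form (-0.31 ± 0.044, adjusted p = 0.00424). Ncoa6, a partner of the Kmt2c and Kmt2d proteins, was at -0.23 ± 0.058 (adjusted p = 0.0227), and the acetyltransferase Kat6a at -0.25 ± 0.050 (adjusted p = 0.0117). Among co-repressor partners Ncor1 was at -0.084 ± 0.024 (adjusted p = 0.0330), and among DNA methylation genes Tet2 was at -0.065 ± 0.011 (adjusted p = 0.00746). Of 8 NuRD partners and 6 sirtuins none varied.

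**Figure D4:**
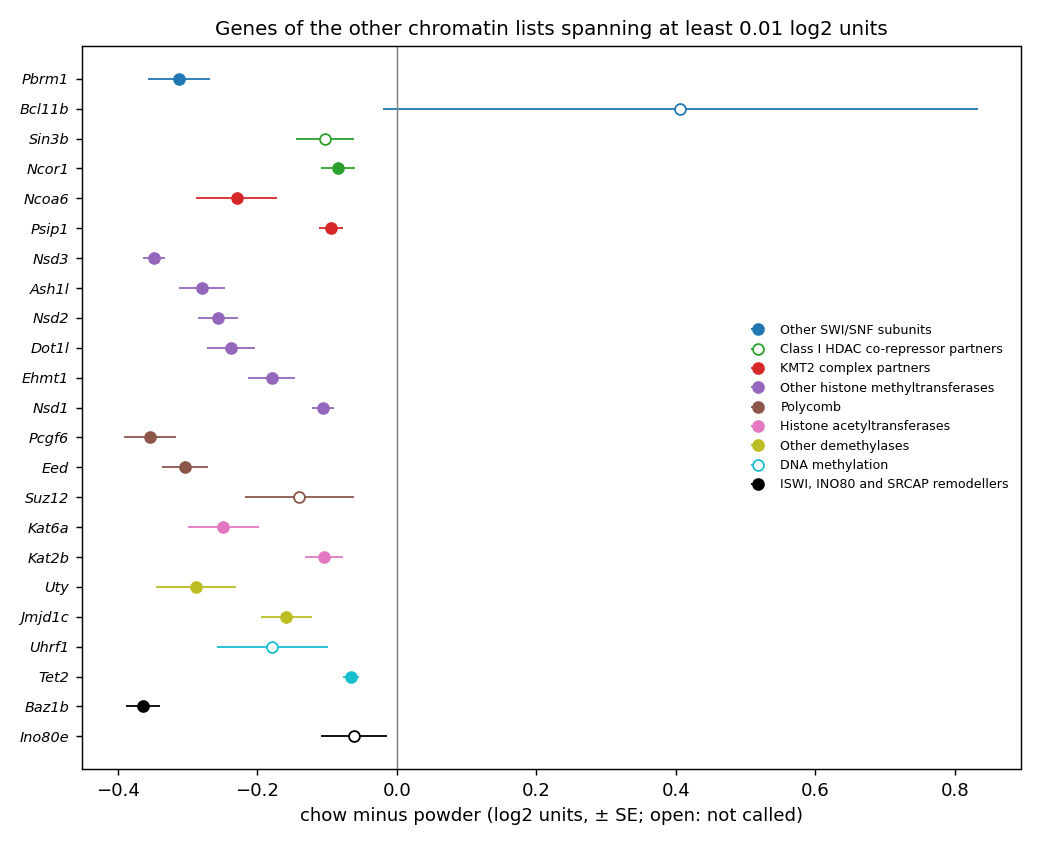
Chow minus powder difference (log2 units, ± SE) of the 23 varying genes in 11 other chromatin lists, coloured by list and open where not called. The 18 called genes all lie left of 0, and Bcl11b, at 0.41 with the widest error, was not called.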

How the data were processed

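The deposited table holds 1 log2 value per probe set and array, as the authors processed it. How the values were summarised and normalized is not given in the sources used here, and the log2 scale was read from the range, 5.37 to 14.0. Per the labels' protocols, biotin-labelled cRNA was made from 100 ng of total RNA. Gene names came from the platform annotation, where 20826 of 31042 rat probe sets had 1 symbol, 436 several and 9780 none listed. The 57 control probe sets stayed out of the fits. All 72 member symbols were in the RefSeq gene table of GRCr8.

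Chow minus powder was fitted with lmFit and eBayes (limma 3.58.1, R 4.3.3), without covariates, over all 14217 genes, and over all rat probe sets for the other probe sets. Calls are Benjamini-Hochberg adjusted p under 0.05 over the whole table. Errors after ± are SE of a difference or SD of a mean. The number of arrays limits the precision. The steps were tested on simulated data. Promoters come from RefSeq.

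The members, families and lists were chosen with earlier results of these data known, and 1 gene of these families is not reported here. Every member could be named. Values on each array are given for up to 12 called, non-overlapping varying members in each direction, and up to 4 called varying genes are named per other list. Smarce1 and Smarca1 were added as the varying members not called.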

Additional observations from a re-analysis of the deposited data

Results flagged for a closer look

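A value standing far from the rest of its group was looked for in 62 groups of 4 or 5 arrays, of which chance flags about 1 in 20, and 3 were found. Bicral was at 8.27 on powder 2, with the next powder array at 8.19. Kmt2c was at 9.03 on chow 2, with the next chow array at 9.15. The varying probe set of Kmt2e was at 7.63 on powder 5, with the next powder array at 7.43. None of these values bridged the gap between the groups.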

How the results depend on the processing

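The counts of varying members lower and higher under chow (14 and 1) were 13 and 2 after quantile normalization, and 12 to 14 and 0 to 1 with each array left out. They were 12 and 6 with the median over probe sets, 15 and 7 with the highest varying probe set and 7 and 0 with the beta-actin gap as a covariate. Over all 72 members, lower and higher calls (37 and 5) were 13 and 54 after quantile normalization, 14 and 56 with medians subtracted and 13 and 2 with the covariate. Shares of all genes are given here only for the 9 arrays as deposited, without covariates, and for the highest varying probe set. The counts under the other settings therefore describe the members and cannot be set beside a rate over all genes. Higher calls were 9 with the median over probe sets and 11 with the highest varying probe set. Leaving out each array gave 23 to 30 lower and 2 to 5 higher, the lowest counts without powder 1. The median difference of the varying members was -0.063 with the median over probe sets and -0.15 with the highest varying probe set, and -0.22 to -0.19 with each array left out. The other varying probe sets (3 lower, 9 higher) gave 1 and 1 with the covariate, and the 18 lower genes of the other lists became 7.

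Signs turned in 7 cases. Kmt5a was at 0.013 and Setdb1 at 0.023 after quantile normalization, and at 0.000293 and 0.00639 with medians subtracted. With the median over probe sets, Smarca2 was at 0.24, Smarcc2 at 0.048 and Smarce1 at 1.7e-05. Trended variance, array weights, leaving out the dimmest genes and an adjusted p under 0.1 (tried on the counts) changed no direction, and gave 14 or 15 lower and 1 higher. With the covariate, 8 of the 15 called varying members lost their call, with adjusted p from 0.0620 to 0.464.

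The labels state no pairing by number. Deviations of same-numbered arrays correlated at -0.31, 0.19, -0.34 and -0.16, which are too few values to settle whether the numbers pair the groups. With the replicate block, 1 varying member was called lower (Chd2) and 0 higher, likewise 1 and 0 of all 72, while the median difference was -0.20. Of the other lists 1 gene was then lower, and 0 of the other probe sets were called either way. The causes of these changes were not tested. The number of arrays, and the unknown background level, limit what the small differences can show.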
